A study of Homo sapiens with 6 samples.

Results

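The gene set described here is the machinery that decides whether a cell enters DNA replication: the D-type cyclins CCND1, CCND2 and CCND3, their kinases CDK4 and CDK6, the kinase inhibitors CDKN2A, CDKN2B, CDKN2C and CDKN1A, and the retinoblastoma gene RB1. The 10 genes were taken by symbol from 36532 gene identifiers in the transcript tables, and the level of a gene was the sum over its transcripts in TPM (a scale that divides reads by transcript length and gives every library the same total). All 10 were found, with 86 transcripts, and all 10 were among the 16035 genes that reached 1 TPM in a cell line. RNA came from 4 cell lines of atypical teratoid rhabdoid tumor (AT/RT), an embryonal brain tumor of early childhood that typically lacks SMARCB1, a subunit of the SWI/SNF chromatin remodeler. The 6 libraries comprised 2 technical replicates of CHLA 04, 2 of CHLA 06, and 1 library of each other line. The labels give no treatment, and all lines were grown in DMEM:F12 medium with EGF, basic FGF and B-27 supplement, so every culture received growth factors that act upstream of the D-type cyclins. Each line was 1 biological sample, no line had SMARCB1 restored, and no other cell type was sequenced.

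D-type cyclins are made in response to growth signals and bind CDK4 or CDK6. The active kinase phosphorylates the RB1 protein, which otherwise holds E2F transcription factors and keeps the genes of DNA replication silent. INK4 proteins (products of CDKN2A, CDKN2B and CDKN2C) bind the kinase and displace the cyclin, whereas the CDKN1A protein, p21, blocks cyclin-dependent kinases more broadly. In rhabdoid tumors the pathway is known because SMARCB1 represses CCND1 and activates CDKN2A. These RNA data hold neither protein levels nor phosphorylation.

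CDKN2A encodes proteins of different sequence from different first exons that join the same exon 2. Exon 1 beta leads to ARF, and exon 1 alpha leads to p16 INK4A. The transcripts of this gene were separated by these first exons, on the minus strand of chromosome 9 (GRCh38).

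CCND3 and CDK6 were the members for which CHLA 06 stood 2-fold or more below every other line, and the 250 bases before a start of each are shown for that reason. The sequences are from RefSeq (GRCh38.p14), which listed a promoter for 8 of the 10 members, and they were matched by symbol. The CCND3 sequence lies on the minus strand of chromosome 6 from 41941809 to 41942058, and its start is 40 bases from that of the most abundant CCND3 transcript. The CDK6 sequence lies on the minus strand of chromosome 7 from 92833960 to 92834209, with 42 bases between its start and that of the most abundant CDK6 transcript. RefSeq listed other starts too, with 2 further windows for CCND3 (5 and 0 GC boxes) and 1 for CDK6 (3 GC boxes), and those nearest the most abundant transcript are printed. Capitals mark the GC box GGGCGG on either strand.
CCND3 promoter: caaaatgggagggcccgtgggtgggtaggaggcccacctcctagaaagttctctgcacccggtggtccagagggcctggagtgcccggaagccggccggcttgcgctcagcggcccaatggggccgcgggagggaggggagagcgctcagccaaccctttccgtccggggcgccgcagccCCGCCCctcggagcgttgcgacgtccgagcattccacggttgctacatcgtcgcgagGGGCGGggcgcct
CDK6 promoter: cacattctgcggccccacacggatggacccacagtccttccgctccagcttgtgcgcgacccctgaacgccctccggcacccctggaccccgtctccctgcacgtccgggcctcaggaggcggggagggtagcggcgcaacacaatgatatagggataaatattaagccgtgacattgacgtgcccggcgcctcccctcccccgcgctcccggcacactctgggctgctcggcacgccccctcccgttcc
The CCND3 window held 2 GC boxes and 26 CG dinucleotides at 71.2% G and C. The CDK6 window held no GC box, 23 CG dinucleotides and 67.6% G and C. A GC box was present in 42.6% of all 35116 promoter windows of this length. Neither window held the letters TTTNNCGC of an E2F motif (5.92% of all windows) or TATAAA (10.7%) on either strand, which says only that these letters are not in the window.

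Depth was 10265899 to 20520229 recovered reads per library, so that 1 read on a transcript of 1000 bases was worth 0.117 to 0.236 TPM. The lower end is CHLA 04 replicate 1. Intervals given for values are 95% Wilson intervals and cover counting error only. As there was 1 biological sample per line, no test was made between lines, and the spread between cultures is unknown. The yardstick used instead was the spread between technical replicates: among genes of 1 TPM or more, 95% differed by less than 2.13-fold between the replicates of CHLA 04 and by less than 1.66-fold between those of CHLA 06. A step between lines is called larger than the technical spread when it exceeded 2.13-fold. In bulk RNA, fewer cells that express a gene and less RNA per cell cannot be told apart. SMARCB1 was between 13.5 and 24.2 TPM in the lines, from 114 to 202 reads per library, so its RNA was detected in lines of a tumor that typically lacks the protein. The files give no coverage by exon, and protein was not measured here. The 5 leukocyte markers summed to at most 0.224 TPM in a library with CD3E and AIF1 at 0 throughout, and the 2 erythroid markers to at most 0.251 TPM with HBB at 0. The 3 endothelial markers summed to 0.0132 to 3.70 TPM, the upper values from VWF in CHLA 04 (2.88 TPM).

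The CHLA 02 library needs to be described before the results. No gene of 5 TPM or more in CHLA 02 was under 0.5 TPM in the other 3 lines, against 2 such genes in CHLA 04, 82 in CHLA 05 and 4 in CHLA 06. Across the 16035 genes, its levels were closest to a weighted mean of 35% CHLA 04 and 65% CHLA 06, from which they differed by 0.42 (root mean square on the log2(TPM + 1) scale). The technical replicates differed from each other by 0.53 in CHLA 04 and 0.34 in CHLA 06, and no mean of other lines came closer than 0.94 to CHLA 04, CHLA 05 or CHLA 06. The weights were fitted to these same values. Of 148 genes at 20 TPM or more in CHLA 04 and under 0.2 TPM in CHLA 06, none was under 1 TPM in CHLA 02, and their median was 0.383 of the CHLA 04 level. Of 131 genes with the opposite pattern, none was under 1 TPM either, with a median of 0.562 of the CHLA 06 level. Not every gene followed the mean, since NES, which encodes the progenitor filament nestin, had 25.6 TPM in CHLA 02 but 8.87 TPM in CHLA 04 and 7.86 TPM in CHLA 06. Whether this is a line whose own levels lie between the others or a library that holds RNA of CHLA 04 and CHLA 06 was not tested. Counts over the members, and fold ranges of named genes that end at CHLA 02, are therefore also given without it.

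Among the members, the ratio of CHLA 02 to the weighted mean ran from 0.547 for CDKN2C, an INK4 inhibitor, to 1.49 for CDK6. CCND2 (0.948) and CCND3 (0.888), the cyclins with opposite patterns in CHLA 04 and CHLA 06, were both close to it. CDKN2C and CDK4 were lower in CHLA 02 than in CHLA 04 and in CHLA 06, so for these genes CHLA 02 did not lie between the other lines.

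**Figure D1:**
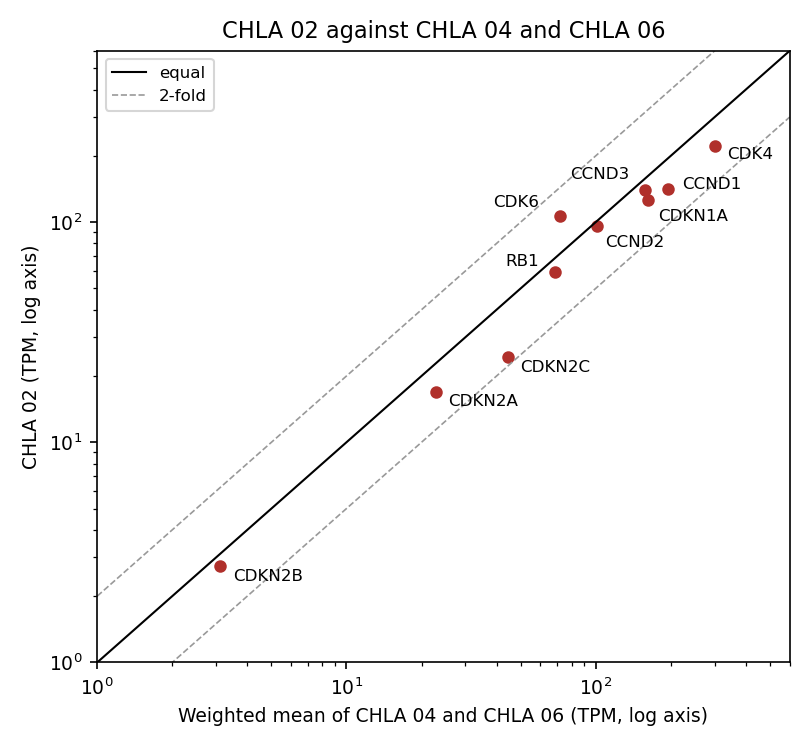
Level of the 10 genes in CHLA 02 (TPM, log axis) against 0.35 times CHLA 04 plus 0.65 times CHLA 06 (TPM, log axis), with 1 point per gene, a solid line for equal values and dashed lines for 2-fold. All points lie within 2-fold, with CDK6 highest above the line (ratio 1.49) and CDKN2C furthest below it (ratio 0.547).

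The members varied widely, and unevenly within each role. Over the 4 lines, 5 of the 10 had a range of 4-fold or more, namely CCND2, CCND3, CDK6, CDKN2A and CDKN2C, against 20.9% of all 16035 genes. CCND1, CDK4, CDKN1A, CDKN2B and RB1 did not reach 4-fold. The median range from the lowest to the highest line was 1.72 for the members and 1.02 for all genes on the log2(TPM + 1) scale. CCND1, CDK4 and RB1 ranged by at most 1.72-fold, whereas CCND2, CCND3 and CDK6 ranged by at least 20.2-fold. Without CHLA 02 the count stayed at 5 of 10, the same genes, against 20.4% of all genes.

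**Figure D2:**
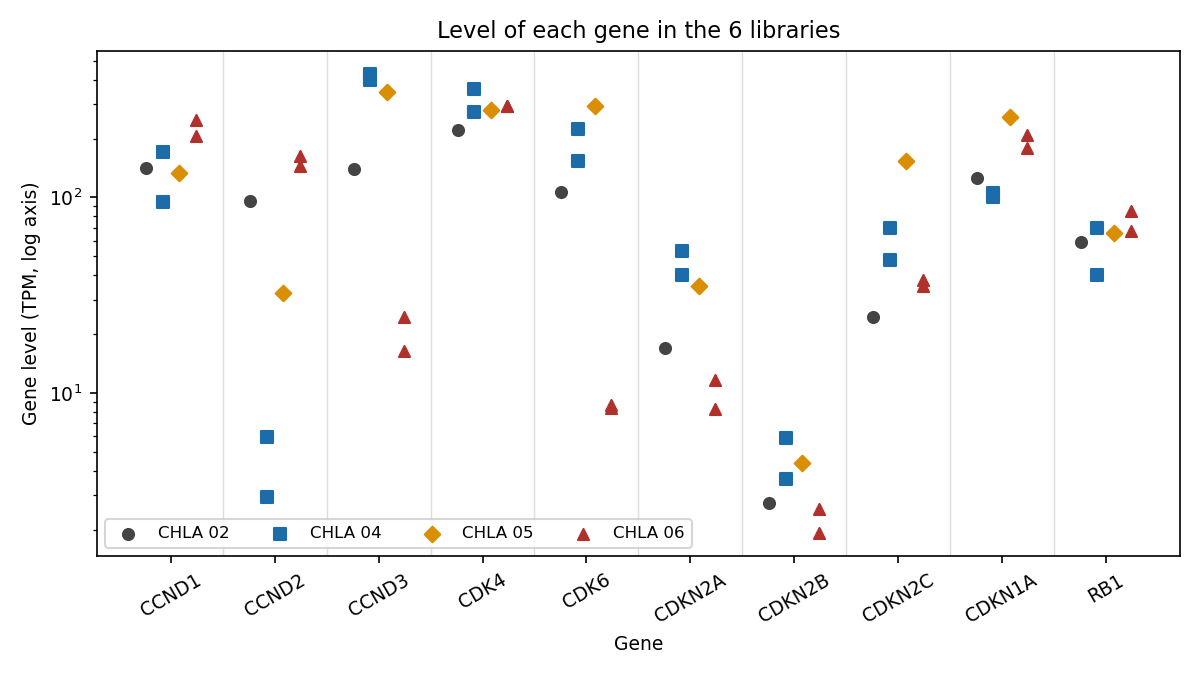
Level of each of the 10 genes (TPM, log axis) in the 6 libraries, with 1 symbol per library and technical replicates of CHLA 04 and CHLA 06 as separate symbols. CDK4 and RB1 form tight columns, whereas the CHLA 04 symbols of CCND2 (2.95 and 5.95 TPM) and the CHLA 06 symbols of CDK6 (8.35 and 8.66 TPM) stand far below the others.

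**Figure D3:**
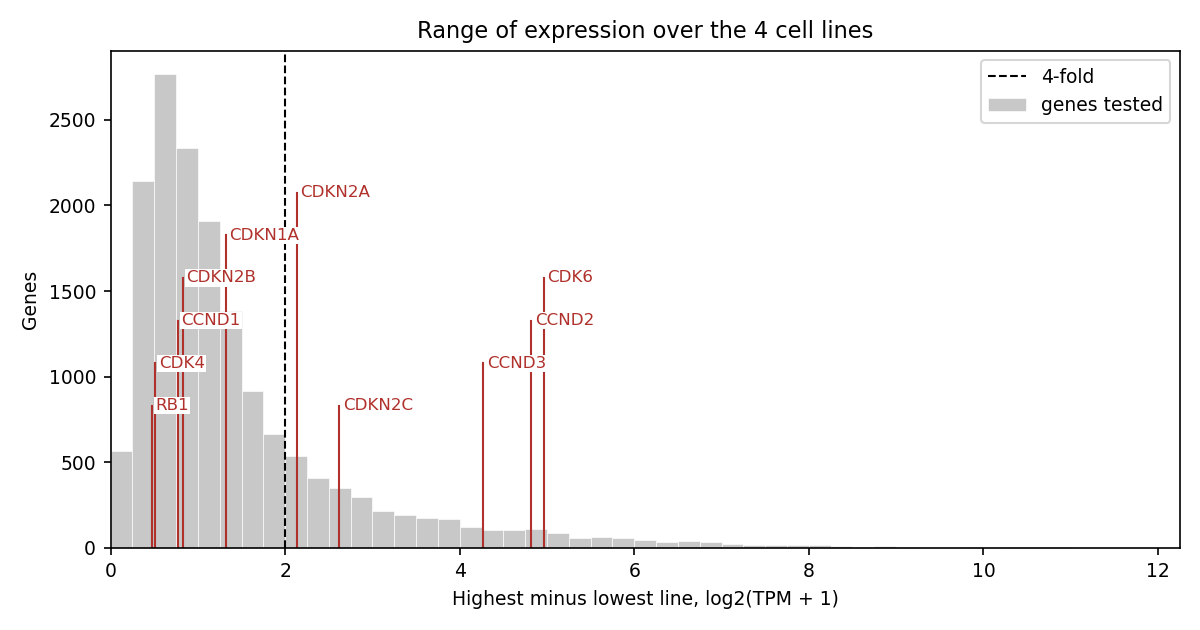
Histogram of the highest minus the lowest line, in log2(TPM + 1), for 16035 genes (grey, number of genes per bin of 0.25), with the 10 members as red lines and the 4-fold limit dashed. CDK6 (4.96), CCND2 (4.82) and CCND3 (4.27) lie in the long right tail, CDKN2A (2.13) lies just past the limit, and RB1 (0.47) and CDK4 (0.51) lie near the peak.

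A line was counted as standing apart for a gene when it was 2-fold or more above or below all 3 other lines on the log2(TPM + 1) scale. CHLA 06 stood apart below the others for 2 members, CCND3 and CDK6 (6.35% of all genes), and above them for none (2.11% of all genes). CHLA 04 was apart below for 1, CCND2 (3.44%), and above for none (3.41%). CHLA 05 was apart above for 1, CDKN2C (6.16%), and below for none (1.62%). CHLA 02 was apart for none in either direction (0.249% of all genes above and 0.0561% below). Without CHLA 02 the count for CHLA 06 rose to 4, with CCND3, CDK6 and CDKN2A below (11.8% of 15900 genes) and CCND2 above (9.01%), while CHLA 04 kept CCND2 (4.51% below) and CHLA 05 kept CDKN2C (6.72% above). With so few members, these counts describe the named genes and not the set.

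CCND1, the D-type cyclin most often tied to growth factor signals, was high in every library. It stood at 141 TPM in CHLA 02, 170 and 95.2 TPM in the replicates of CHLA 04, 133 TPM in CHLA 05, and 249 and 207 TPM in those of CHLA 06. The gene lies on chromosome 11 from 69641087 to 69654474 (plus strand). CHLA 06 was the highest line, 1.72-fold above CHLA 04, and its libraries did not overlap with the others. None of the steps between neighbouring lines exceeded the technical spread, and the replicates of CHLA 04 differed by 1.79-fold themselves. Its main transcript, ENST00000227507, made up 94.4 to 98.9% of the gene's TPM.

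CCND2, a cyclin prominent in neural progenitor cells, had the widest range of the cyclins. It was at 96.0 TPM in CHLA 02, 5.95 and 2.95 TPM in CHLA 04, 32.3 TPM in CHLA 05, and 145 and 162 TPM in CHLA 06. The mean of CHLA 06 (153 ± 12.4 TPM, SD, n = 2 technical replicates) was 34.5-fold that of CHLA 04 (4.45 ± 2.12 TPM, SD, n = 2). The order was CHLA 06, CHLA 02, CHLA 05 and CHLA 04, with no overlap between libraries. The steps from CHLA 02 to CHLA 05 (2.97-fold) and from CHLA 05 to CHLA 04 (7.26-fold) exceeded the technical spread, whereas that from CHLA 06 to CHLA 02 (1.60-fold) did not. Although low, the CHLA 04 values rested on 163 and 132 reads, and the interval of the lower was 2.49 to 3.50 TPM. The gene lies on chromosome 12 from 4273772 to 4305350 (plus strand), and ENST00000261254 held at least 98.3% of its TPM.

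CCND3, the cyclin best known from lymphoid and other differentiating cells, ran the other way. Its level was 140 TPM in CHLA 02, 429 and 399 TPM in CHLA 04, 347 TPM in CHLA 05, and 16.4 and 24.5 TPM in CHLA 06. CHLA 04 (414 ± 20.9 TPM, SD, n = 2) was 20.2-fold above CHLA 06 (20.5 ± 5.73 TPM, SD, n = 2). CHLA 04 and CHLA 05 differed by 1.19-fold, within the technical spread, while CHLA 05 was 2.47-fold above CHLA 02 and CHLA 02 6.85-fold above CHLA 06. CCND3 lies on chromosome 6 from 41934933 to 42050357 (minus strand). ENST00000372991, whose start is near that of the promoter printed above, held 64.5 to 77.8% of its TPM in every line, and 90.3 to 94.7% fell on protein-coding transcripts, so the low level of CHLA 06 was seen in the main transcript too.

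Taken as a sum, the D-type cyclins varied less than CCND2 and CCND3 did on their own. The sum was 378 TPM for CHLA 02, 605 and 497 TPM for the replicates of CHLA 04, 513 TPM for CHLA 05, and 410 and 393 TPM for those of CHLA 06. CCND3 supplied 70.9 and 80.3% of that sum in CHLA 04 and 67.7% in CHLA 05, but 4.01 and 6.24% in CHLA 06. In CHLA 06 the larger shares were those of CCND1 (60.7 and 52.5%) and CCND2 (35.3 and 41.2%). The split was most even in CHLA 02, at 37.4% CCND1, 25.4% CCND2 and 37.2% CCND3. CCND2 was under 1% of the sum in the libraries of CHLA 04 (0.984 and 0.594%) and 6.31% in CHLA 05. These are shares of RNA per length, and the amounts of the proteins were not measured.

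**Figure D4:**
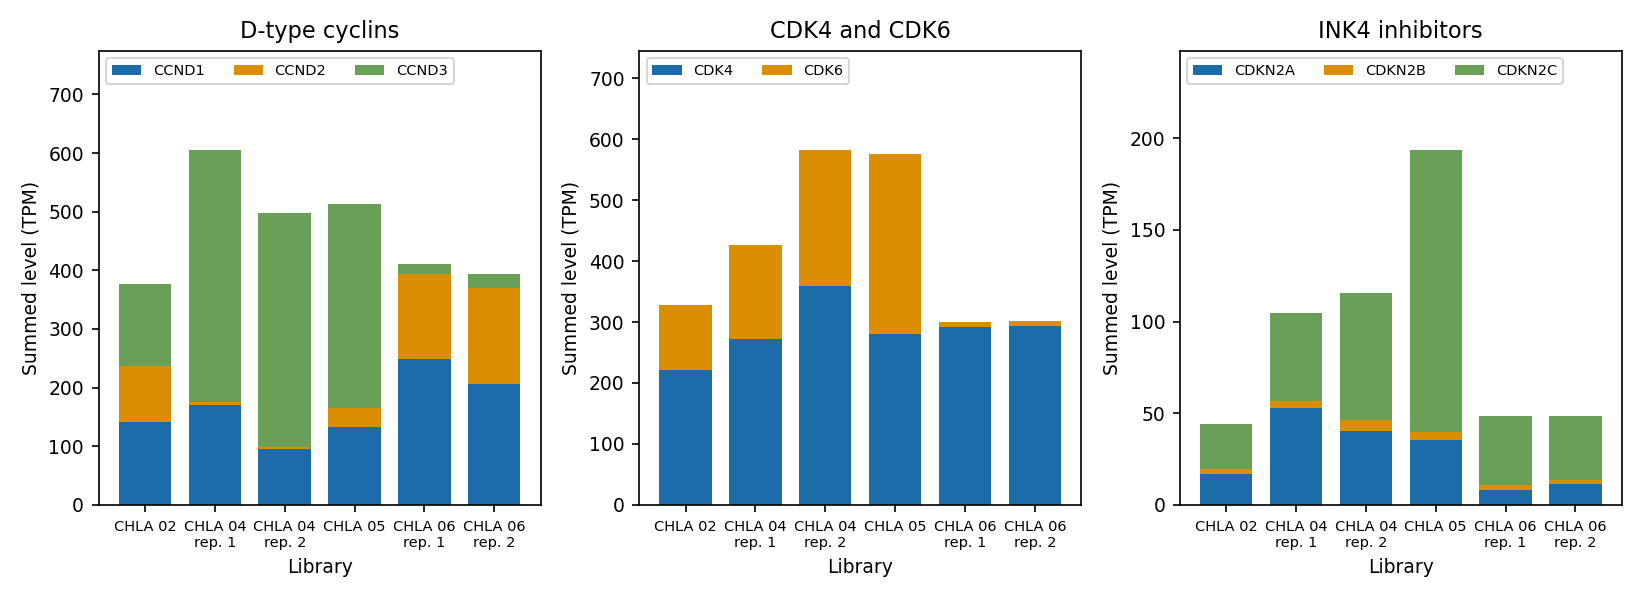
Stacked bars of summed TPM per library (linear axes from 0) for the D-type cyclins, for CDK4 with CDK6, and for CDKN2A, CDKN2B and CDKN2C (titled INK4 inhibitors). All CDKN2A transcripts are counted, including those of ARF. CCND3 fills most of the bar in CHLA 04 and CHLA 05 and 4.01 to 6.24% of it in CHLA 06, CDK6 nearly vanishes in CHLA 06 (2.77 and 2.87%), and CDKN2C makes CHLA 05 the tallest INK4 bar (193 TPM).

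CDK4, a catalytic partner of all D-type cyclins, was the steadier of the kinases. It was at 221 TPM in CHLA 02, 272 and 359 TPM in CHLA 04, 280 TPM in CHLA 05, and 292 and 293 TPM in CHLA 06. In every library it stood between the percentiles 96.6 and 97.7 of the genes above 0. The range over the lines was 1.43-fold, with CHLA 02 lowest, and 1.13-fold without CHLA 02, and no step between neighbours exceeded the technical spread. CDK4 lies on chromosome 12 from 57747727 to 57756013 (minus strand).

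The transcripts of CDK4 were less steady than its sum. ENST00000257904, the main protein-coding transcript, held 68.9% of the gene's TPM in CHLA 02 and 60.6% in CHLA 05, 42.8 and 38.1% in CHLA 04, and 47.5 and 53% in CHLA 06. Annotated as a target of nonsense-mediated decay (by GENCODE release 44), ENST00000553237 held 0.781% in CHLA 02 and 0.804% in CHLA 05, 6.94 and 20.9% in CHLA 04, and 21.3 and 18.9% in CHLA 06. It was thus higher in every library of CHLA 04 and CHLA 06 than in the other lines, but the replicates of CHLA 04 lay far apart in that share. With the main transcript alone, CHLA 04 lay below CHLA 02, by −0.27 on the log2 scale. The cause of this reversal was not tested.

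CDK6, the other D-cyclin kinase, was abundant in 3 lines and low in CHLA 06. Its level was 107 TPM in CHLA 02, 154 and 223 TPM in CHLA 04, 295 TPM in CHLA 05, and 8.66 and 8.35 TPM in CHLA 06. CHLA 05 was 34.7-fold above CHLA 06 (8.50 ± 0.219 TPM, SD, n = 2), a range as wide as that of CCND2. The step from CHLA 02 down to CHLA 06 was 12.5-fold and exceeded the technical spread. The steps from CHLA 05 to CHLA 04 (1.56-fold) and from CHLA 04 to CHLA 02 (1.77-fold) did not. CHLA 06 still had 735 and 821 reads on the gene, with the interval of the second library from 7.79 to 8.94 TPM. CDK6 made up 2.87 and 2.77% of the summed TPM of CDK4 and CDK6 in CHLA 06, compared with 32.5% in CHLA 02, 36.2 and 38.3% in CHLA 04 and 51.3% in CHLA 05.

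CDK6 is a long gene, on chromosome 7 from 92604921 to 92836594 (minus strand), and its introns offered a further reading from the same libraries. In the separate tables of long terminal repeat (LTR) elements, whose TPM is scaled over LTR elements alone, 18 elements lay inside the gene and 8 of them had a value above 0. All 4 elements on the strand of CDK6 had values, against 4 of the 14 on the other strand. The elements summed to 723 LTR-scale TPM for CHLA 05, 646 and 633 for the replicates of CHLA 04 and 440 for CHLA 02, but to 44.3 and 16.7 for those of CHLA 06, low in the same line as the gene. The leading element, an MLT1E2 copy of 429 bases at 92650459 to 92650887 outside all annotated CDK6 exons, had values of 258 and 212 for the replicates of CHLA 04, 254 for CHLA 05 and 125 for CHLA 02, but 14.3 and 8.94 for those of CHLA 06. Inside CCND3 and on its strand, an LTR16C copy (chromosome 6, 41952229 to 41952712) reached 34.1 TPM on the LTR scale in CHLA 05, with 19.3 and 13.0 in the replicates of CHLA 04 and 6.16 in CHLA 02, and was listed at 0 in both CHLA 06 libraries. RB1 differed, in that its 35 elements, of which 6 had a value above 0, summed to 26.0 for CHLA 02, 5.41 and 18.1 for the replicates of CHLA 04, 44.3 for CHLA 05, and 26.6 and 38.4 for those of CHLA 06, a wider spread than that of RB1 itself. The 2 elements inside CDKN2A were listed at 0, and the other members held no element. Whether these values come from unspliced RNA of the host gene or from transcripts of the elements was not tested.

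Among the 3 INK4 members, CDKN2A differed most between CHLA 04 and CHLA 06. It was at 17 TPM in CHLA 02, 53.1 and 40.3 TPM in CHLA 04, 35.2 TPM in CHLA 05, and 8.27 and 11.6 TPM in CHLA 06. CHLA 04 (46.7 ± 9.05 TPM, SD, n = 2) was 4.71-fold above CHLA 06 (9.92 ± 2.34 TPM, SD, n = 2). The libraries of different lines did not overlap, yet no step between neighbouring lines exceeded the technical spread, the largest being 2.07-fold from CHLA 05 to CHLA 02. The 4.71-fold difference of CHLA 04 from CHLA 06 did exceed that spread. The gene (chromosome 9 from 21967753 to 21995301, minus strand) was detected in every library, but thinly, from 59 to 261 reads. Its range of 2.13 on the log2 scale was close to the 4-fold limit of 2 and moved between 1.90 and 2.36 under the alternatives tried.

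Transcripts starting at exon 1 beta, the first exon of ARF, held the larger share of CDKN2A reads in every library. They had 49.0% of reads in CHLA 02 (interval 39.5 to 58.6%), 60.1 and 50.6% in CHLA 04, 50.6% in CHLA 05 (44.3 to 57.0%), and 71.2 and 52.2% in CHLA 06. Exon 1 alpha transcripts, the class that includes the p16 INK4A transcript ENST00000304494 and 1 target of nonsense-mediated decay, had 9.80% in CHLA 02 (5.41 to 17.1%), 19.3 and 25.7% in CHLA 04, 32.3% in CHLA 05 (26.7 to 38.6%), and 8.47 and 28.3% in CHLA 06. The CHLA 06 replicates, with 5 of 59 and 26 of 92 reads, differed in this share by more than the libraries of CHLA 04 and CHLA 05 did, and no order of the lines is read from it. In TPM, exon 1 alpha transcripts reached 10.8 in CHLA 05, with 9.12 and 9.77 for the replicates of CHLA 04, 1.81 for CHLA 02, and 0.571 and 3.12 for the replicates of CHLA 06. The remaining reads fell on transcripts with another upstream exon or with neither first exon. Since the transcripts share exon 2 and later exons, these shares depend on how the program of the authors assigned shared reads.

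**Figure D5:**
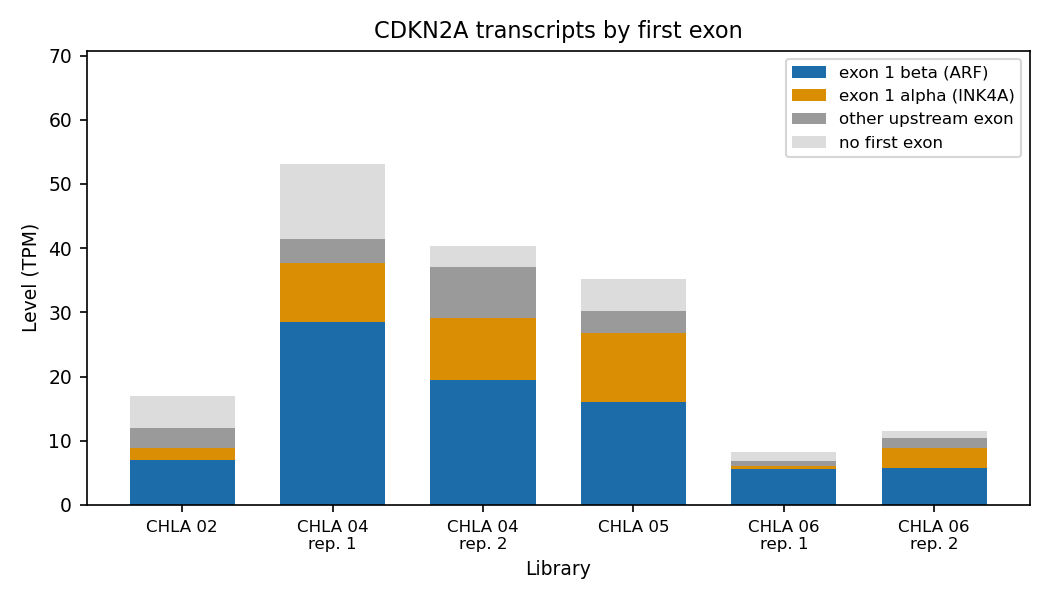
CDKN2A level (TPM, linear axis from 0) in the 6 libraries, stacked by the first exon of the transcripts: exon 1 beta, exon 1 alpha, another upstream exon, or no first exon. Exon 1 beta is the largest segment in every library, between 5.57 and 28.5 TPM, and exon 1 alpha lies between 0.571 and 10.8 TPM.

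CDKN2B, which encodes p15 and lies beside CDKN2A on chromosome 9 from 22002903 to 22009363 (minus strand), was the lowest member in every library except the second CHLA 04 library, where CCND2 was lower. Its level was 2.74 TPM in CHLA 02, 3.63 and 5.89 TPM in CHLA 04, 4.39 TPM in CHLA 05, and 2.54 and 1.92 TPM in CHLA 06. CHLA 04 and CHLA 06 differed by 2.13-fold, the libraries of CHLA 04 and CHLA 05 overlapped, and no step between neighbours exceeded the technical spread. It rested on 57 to 152 reads per library. CDKN2A and CDKN2B shared the order CHLA 04, CHLA 05, CHLA 02 and CHLA 06. MTAP, the neighbouring gene that is often lost together with them in tumors, was at 20.9 to 29.3 TPM in all libraries.

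CDKN2C, which encodes p18, was the most abundant of the 3 INK4 members in 5 of the 6 libraries, all but CHLA 04 replicate 1. It was at 24.3 TPM in CHLA 02, 48.0 and 69.6 TPM in CHLA 04, 154 TPM in CHLA 05, and 37.9 and 35.2 TPM in CHLA 06. CHLA 05 stood 2.61-fold above CHLA 04, a step larger than the technical spread, and 6.34-fold above CHLA 02. The steps from CHLA 04 to CHLA 06 (1.61-fold) and from CHLA 06 to CHLA 02 (1.51-fold) were within it. Without CHLA 02 the range fell from 2.62 to 2.04 on the log2 scale, just past the 4-fold limit. CDKN2C lies on chromosome 1 from 50960745 to 50974633 (plus strand), and the CHLA 05 value comes from 1 library with no technical replicate.

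The sum of CDKN2A, CDKN2B and CDKN2C was 43.9 TPM in CHLA 02, 105 and 116 TPM in CHLA 04, 193 TPM in CHLA 05, and 48.8 and 48.7 TPM in CHLA 06. This sum counts all CDKN2A transcripts, including those of ARF, and leaves out CDKN2D, so it is not the total of INK4 RNA. CDKN2C was 79.5% of the sum in CHLA 05 and 77.8 and 72.3% in CHLA 06. In CHLA 04 CDKN2A was 50.7 and 34.8%, and in CHLA 02 38.6%. CHLA 05, the line with the highest CDK6, was thus also the line with the highest sum of CDKN2A, CDKN2B and CDKN2C RNA.

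CDKN1A, which encodes p21, was at 126 TPM in CHLA 02, 101 and 105 TPM in CHLA 04, 258 TPM in CHLA 05, and 178 and 209 TPM in CHLA 06. CHLA 05 was 2.51-fold above CHLA 04, and the libraries of different lines did not overlap. Each step between neighbouring lines was within the technical spread, the largest at 1.53-fold, but the difference of CHLA 05 from CHLA 04 exceeded that spread. The gene lies on chromosome 6 from 36676460 to 36687339 (plus strand) and stood between the percentiles 88.3 and 96.9 of expressed genes.

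RB1, the target of the kinases, had a range as narrow as that of CDK4. It was at 59.4 TPM in CHLA 02, 40.0 and 70.0 TPM in CHLA 04, 65.9 TPM in CHLA 05, and 67.6 and 85.1 TPM in CHLA 06. The lines differed by at most 1.39-fold, whereas the replicates of CHLA 04 alone differed by 1.75-fold. RB1 spans chromosome 13 from 48303751 to 48481986 (plus strand), and its full-length transcript ENST00000267163 held 90.3 to 95.6% of its TPM. RNA of RB1 was thus present in all lines.

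Several members overlap genes on the other strand, where reads are separated only if strand was used in counting, and the strand setting of the counting is not given in the sources used here. ORAOV1 over CCND1 was at 13.6 to 29.3 TPM, and TSPAN31 and MARCHF9 over CDK4 were at 21.7 to 37.0 and 18.2 to 47.4 TPM. CCND2-AS1 reached 1.35 TPM. The antisense gene AC002454.1 at CDK6 was at 1.06 TPM in CHLA 02, 4.00 and 6.79 TPM in CHLA 04, 6.54 TPM in CHLA 05, and 0.299 and 0 TPM in CHLA 06, low in the same line as CDK6. CDKN2B-AS1, also known as ANRIL, overlaps CDKN2A and CDKN2B and was at 1.15 TPM in CHLA 02, 4.64 and 4.35 TPM in CHLA 04, 1.61 TPM in CHLA 05, and 0.341 and 1.08 TPM in CHLA 06. CHLA 04 stood apart above the other lines for it (3.41% of all genes). A longer antisense gene at the same place, ENSG00000264545, was at 4.56 to 9.92 TPM. The share of these values that belongs to the members was not tested.

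Of the other CDK inhibitors, 2 of 3 had a 4-fold range (20.9% of all genes) and CHLA 06 was lowest for all 3. With so few genes in this list and those below, the counts describe the named genes and not the lists. CDKN1C, which encodes p57, was at 13.6 TPM in CHLA 02, 24.5 and 18.1 TPM in CHLA 04, 17 TPM in CHLA 05, and 1.82 and 2.30 TPM in CHLA 06, apart below the other lines (6.35% of all genes). CDKN2D, the remaining INK4 gene, was at 8.16 TPM in CHLA 02, 23.9 and 22.1 TPM in CHLA 04, 10.5 TPM in CHLA 05, and 3.26 and 4.72 TPM in CHLA 06, apart above the others in CHLA 04 (3.41% of all genes).

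RBL1 and RBL2, the pocket proteins related to RB1, ranged by 1.90-fold and 1.29-fold (1.75-fold and 1.27-fold without CHLA 02). Among the 10 E2F and DP factors, 3 had a 4-fold range, against 20.9% of all genes. E2F1, an activator released by RB1, was at 21.5 TPM in CHLA 02, 102 and 74.6 TPM in CHLA 04, 94.0 TPM in CHLA 05, and 10.1 and 22.2 TPM in CHLA 06. E2F7, a repressor, was at 62.2 TPM in CHLA 05, at 30.8 and 49.8 TPM in the replicates of CHLA 04, and between 9.17 and 18.1 TPM in the libraries of CHLA 02 and CHLA 06, a range of 6.22-fold and of 4.55-fold without CHLA 02. TFDP2, a DNA-binding partner of E2F proteins, was at 603 TPM in CHLA 02, 1409 and 954 TPM in CHLA 04, 670 TPM in CHLA 05, and 79.7 and 65.5 TPM in CHLA 06, apart below the others (6.35% of all genes). For E2F1 the CHLA 06 replicates lay on either side of CHLA 02.

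None of the 15 E2F target genes had a 4-fold range (20.9% of all genes) or stood apart in a line. Their median range was 0.95 on the log2 scale against 1.02 for all genes. PCNA, the sliding clamp of DNA polymerase, was at 173 TPM in CHLA 02, 164 and 273 TPM in CHLA 04, 330 TPM in CHLA 05, and 214 and 389 TPM in CHLA 06. TYMS, which makes thymidylate, ranged by 2.46-fold (1.65-fold without CHLA 02). MCM7 and MCM4, of the replicative helicase, ranged by 1.75-fold (1.58-fold without CHLA 02) and by 1.94-fold. The technical replicates of CHLA 06 differed on these genes as well: all 15 were higher in replicate 2, by a median of 1.74-fold (1.01-fold for all genes) and up to 3.08-fold, and 8 of the 15 differed by more than the 1.66-fold of the technical spread of that line. In CHLA 04, 13 of 15 were higher in replicate 2, by a median of 1.30-fold (0.960-fold for all genes), and none exceeded 2.13-fold. RNA of replication genes was present in every line. Whether the low CCND3 and CDK6 of CHLA 06 bear on its level of these genes was not tested.

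Of the 6 genes for cyclin E, cyclin A, CDK2 and CDC25A, which act after RB1, none had a 4-fold range (20.9% of all genes). CCNA1 stood apart above the others in CHLA 06 (2.11% of all genes), at 52.5 and 47.6 TPM beside 13.0 to 25.6 TPM elsewhere. None of the 3 genes of the CDK activating kinase (CDK7, CCNH and MNAT1) had a 4-fold range, the widest being CDK7 at 2.16-fold. Of the 6 genes for turnover of D-type cyclins and folding of their kinases, FBXO4, an F-box protein linked to cyclin D1 turnover, had a 4-fold range, with 0.562 and 2.97 TPM in CHLA 04 and 7.58 to 14.2 TPM elsewhere. The CHLA 04 values rested on only 4 and 28 reads and differed by more than the technical spread. With replicate 2 alone (2.97 TPM), the range up to CHLA 06 (12.5 TPM) falls short of 4-fold on the log2(TPM + 1) scale. The 4-fold range of FBXO4 therefore rests on replicate 1, the library with 4 reads.

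None of the 7 Polycomb genes, whose complexes silence CDKN2A in many cells, had a 4-fold range (20.9% of all genes). The widest was EZH2 at 3.98-fold, from 136 TPM in CHLA 05 to 34.1 TPM in CHLA 06, and SUZ12 ranged by 2.50-fold (2.33-fold without CHLA 02).

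For the 5 members with a 4-fold range, the genes with the most similar pattern were sought among 11858 genes of 10 TPM or more in a line. Likeness was the largest difference, over the 4 lines, between the log2(TPM + 1) values after the mean over lines was subtracted. Closest to CCND2 were GAD1 (0.13), which makes the transmitter GABA, PLAU (0.15) and OLFML2B (0.15), with 20 genes within 0.5. CCND3 was matched by RP11-82L18.2 (0.16), KIF5C (0.17), a neuronal kinesin, and USP44 (0.19), with 56 genes within 0.5. ACBD7 (0.13), MAMLD1 (0.13) and FREM2 (0.16) were closest to CDK6, with 36 within 0.5. CPNE2 (0.07), RGS12 (0.09) and WWC3 (0.10) were closest to CDKN2A, a pattern shared by 397 genes within 0.5, and FAM212B (0.10), NUDT10 (0.19) and DGKZ (0.28) to CDKN2C, with 61. As an example, ACBD7 was at 64.7 TPM in CHLA 02, 114 TPM in CHLA 04, 156 TPM in CHLA 05 and 4.40 TPM in CHLA 06. Likeness over 4 lines is a description, and these lists were picked for it.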

How the data were processed

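RNA-seq of 6 libraries (TruSeq Stranded Total RNA, paired-end) from 4 cell lines was used. After trimming (Trimmomatic), the authors mapped to GRCh38 in the CLCbio Genomics Workbench at its default settings, and they deposited transcript-level TPM for the Ensembl annotation and, from a separate mapping, TPM per LTR element. The submitters' processing notes also name CASAVA 1.8.2 and FastQC. The version of the workbench is not given in the sources used here.

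From the deposited TPM, gene levels were summed over transcripts by gene identifier, and technical replicates were averaged within a line. Reads were recovered as whole multiples of TPM times length, with at least 99.81% of values within 0.1 of a whole read. The recovery and the calls were tested on simulated data. Depth limits precision most in CHLA 04 replicate 1. Fold calls used log2(TPM + 1), which understates differences of low genes, whereas printed folds of genes are ratios of mean TPM. Genes under 1 TPM in every line were left out. Medians of all genes shifted by at most 0.12 (log2) under median-ratio scaling. A weighted mean of a pair of lines was fitted in steps of 1%. No test, batch term or pairing was used, since each line was 1 biological sample. Named genes were all members, genes of the lists reported with a 4-fold range or apart in a line (otherwise the most abundant), overlapping genes of 1 TPM or more and the 3 genes most alike. MTAP was named outside this rule, after its values were seen. The result of 1 further list and the sequences of 1 member are not reported here. Members and lists were chosen with earlier results of these data known. Python 3.11.15, pandas 2.3.3, NumPy 2.4.6, SciPy 1.17.1 and matplotlib 3.10.9 were used. Transcript types came from GENCODE release 44, which held 85 of the 86 transcripts.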

Additional observations from a re-analysis of the deposited data

How the results depend on the processing

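The number of members with a 4-fold range was 4 to 6 in the alternatives tried. CDKN2A was the member lost, under median-ratio scaling, quantile normalization, without replicate 1 of CHLA 04 and without replicate 1 of CHLA 06 (4 each), and CDKN1A was gained when the limit was 2-fold (6, where 51.3% of all genes passed). Of all genes, 31.9% passed with a pseudocount of 0.1 and 9.16% when no gene was left out for a low level. Lowering the limit for a line that stands apart to 1.5-fold gave 2 members in CHLA 05 (CDK6 and CDKN2C, with 14.4% of all genes in either direction) and 5 in CHLA 06 (CCND1, CCND2, CCND3, CDK6 and CDKN2A, with 17.1%). Leaving out CHLA 02, chosen after its levels were seen, gave 4 in CHLA 06. The alternative with protein-coding transcripts was also chosen after the data were seen. The difference between the highest and the lowest line reversed for CDK4 with the most abundant transcript alone (−0.27 on the log2 scale), and the cause was not tested. Over the alternatives it was 4.77 to 5.10 for CDK6, 4.47 to 5.29 for CCND2, 4.01 to 4.57 for CCND3 and 2.04 to 2.83 for CDKN2C. No paired analysis was possible because CHLA 04 and CHLA 06 share only technical replicate numbers and no result comes from a test. Depth limits CDKN2A and CDKN2B most, with 57 to 261 reads per library.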
